A study of Arabidopsis thaliana with 48 samples.

Results

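The leaf that receives the light and an untreated leaf on the same plant both change their transcripts within minutes, and the values below describe where those 2 responses parted after 8 min. The quantity is an interaction in wild type Arabidopsis thaliana of the Col accession: the log2 change of a transcript between 8 and 0 min of light stress in the local leaf, minus the same change in the systemic leaf. A positive value means that the transcript moved upward more (or downward less) in the local leaf, and a negative value that it did so in the systemic leaf. It was formed from 12 of the 48 libraries of the series, 3 in each of 4 groups: local leaves at 8 min, local leaves at 0 min, systemic leaves at 8 min and systemic leaves at 0 min. Plants were 4 to 5 weeks old and grown under short days at 50 µmol m-2 s-1. A single local leaf was lit at 2000 µmol m-2 s-1, and the systemic leaf, a distant leaf of the same plants, was not treated; leaves of many plants were pooled for each replicate, and each time was taken from other plants. The Col libraries at 2 and 4 min and the 24 libraries of the rbohD knockout, which lacks the NADPH oxidase RBOHD, were collected in the same way, with rbohD as a separate experiment, so that genotype and experiment cannot be told apart.

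Excess light damages photosystems, heats the leaf and drives the formation of reactive oxygen species, and a lit leaf calls up chaperones and antioxidant enzymes. RBOHD, at the plasma membrane, makes superoxide outside the cell and is needed for a wave of reactive oxygen species and calcium that travels from the lit leaf to the rest of the plant and prepares unlit leaves for stress. Heat shock factors, which bind heat shock elements, switch on cytosolic and organellar chaperones. Salicylic acid is the hormone of systemic acquired resistance, in which distant leaves of an infected plant become resistant; chaperones of the endoplasmic reticulum fold the secreted defence proteins that it induces.

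The 12 libraries held 20199698 to 28675623 reads. All 7 mesophyll markers were detected, with summed levels of 1467017 to 1488995 normalized counts in lit local leaves, 1589511 to 1633369 in local leaves before the light, 1420297 to 1480220.3 in the systemic leaves of lit plants and 1637324 to 1777507 in systemic leaves before the light. Among 5 root markers, PYK10 (a root beta-glucosidase) stood at 303 normalized counts in replicate 1 of the systemic leaves at 0 min and at no more than 71.6 in the other 11 libraries, and the remaining 4 did not exceed 1.08. That library was also above its replicates in some defence transcripts, as given below. RBOHD itself had 2127, 2153 and 2145 normalized counts in local leaves at 8 min, against 1373, 1364 and 1367 at 0 min, and 1961, 1960.0 and 1922 in systemic leaves at 8 min, against 1381, 1307 and 1244 at 0 min. Its transcript rose in both leaves, with no call for the difference between them (interaction 0.07, SE 0.06, adjusted p = 0.52, and -0.03 with each library set to one total), and in rbohD it averaged 374 and 424 normalized counts in local and systemic leaves at 8 min.

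Of 18452 transcripts tested, 2540 (13.8%) had an interaction at 8 min at an adjusted p below 0.05 in limma. The interaction was higher, toward the local leaf, for 1054 (5.71%) and lower, toward the systemic leaf, for 1486 (8.05%). Each leaf on its own changed far more widely, with 8277 transcripts (44.9%) called in local leaves, 4067 raised (22%) and 4210 lowered (22.8%), and 8195 (44.4%) in systemic leaves, 4083 raised (22.1%) and 4112 lowered (22.3%). The split between the directions depended on the scaling. With each library set to one total, 567 were higher and 2822 lower, and the median over all transcripts moved to -0.12 log2, against -0.01 with the deposited scaling. After correction for GC content, 1449 were higher and 1329 lower. Among the called transcripts, 303 reached at least 2 log2 (1.64%), 134 of them higher (0.726%) and 169 lower (0.916%), and these large values are the ones described most closely here.

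The 2 directions differed in how they arose. Of the 1054 higher transcripts, 388 (36.8%) rose only in the local leaf, 251 (23.8%) fell only in the systemic leaf and 191 (18.1%) rose in both. Of the 1486 lower transcripts, 638 (42.9%) rose in both leaves, 384 (25.8%) rose only in the systemic leaf and 281 (18.9%) fell only in the local leaf. The median change of the higher transcripts was 0.32 log2 in local leaves and -0.14 in systemic leaves, and that of the lower transcripts 0.15 in local leaves and 0.75 in systemic leaves. Opposite calls in the 2 leaves were few: 97 transcripts rose in the local and fell in the systemic leaf, and 75 fell in the local and rose in the systemic leaf.

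**Figure D1:**
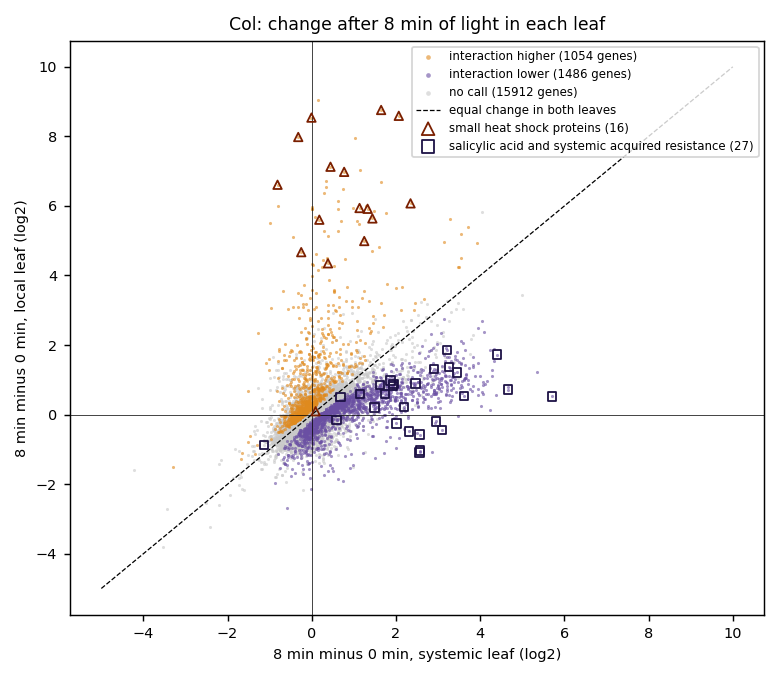
Change between 8 and 0 min of light in systemic leaves (x axis, log2) and local leaves (y axis, log2) of Col for the 18452 transcripts tested, 1 point each; orange points have a higher interaction (1054), violet points a lower one (1486), and the dashed line marks equal change. The small heat shock proteins (triangles) stand high on the local axis, apart from 1 near the origin, and most salicylic acid transcripts (squares) stretch along the systemic axis.

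Small heat shock proteins, which hold unfolding proteins in solution, separated the lit leaf most. Of 16 tested, 15 had a higher interaction (93.8%, against 5.71% of all transcripts), with a median of 5.17 log2. Local leaves changed by a median of 6.01 and systemic leaves by 0.61, and the local median stayed 6.01 with the 3 members that had at most 3 reads in each local library at 0 min set to their lower bounds. HSP21 (AT4G27670), the chloroplast member, had 248, 264 and 243 normalized counts in local leaves at 8 min, against 0, 0 and 0 at 0 min. Systemic leaves had 0, 0 and 0 at 8 min, against 0, 0 and 0.956 at 0 min. The transcript was therefore present above the floor in lit leaves alone, at least 73.6-fold above its 0 min level, where the floor is 3 reads per library. ATHSP22.0 (AT4G10250), a member of the endoplasmic reticulum, had 339.7, 400.4 and 376 normalized counts in local leaves at 8 min, against 0, 0 and 0 at 0 min, at least 109-fold higher, and no more than 0.956 in any systemic library at 0 or 8 min.

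Members that had some counts before the light also moved far. HSP20-like AT1G59860 had 14993, 15549 and 14643 normalized counts in local leaves at 8 min, against 103, 106 and 112 at 0 min. Its systemic libraries held 131, 119.5 and 102 at 8 min, against 89.3, 83.5 and 85.1 at 0 min. The lowest local library at 8 min stood at 14643 and the highest of the other 9 at 131, and the interaction was 6.68 (SE 0.14, adjusted p = 6.5e-26). HSP23.6-MITO (AT4G25200), targeted to mitochondria, had 2853, 3047 and 2817 in local leaves at 8 min, against 3.43, 11.8 and 4.33 at 0 min, and 7.35, 4.23 and 3.39 in systemic leaves at 8 min, against 2.15, 0.983 and 0 at 0 min (interaction 7.11, SE 0.58, adjusted p = 2.7e-11). Its systemic change was called as well, though no systemic library exceeded 7.35. HSP20-like AT1G52560 reached 338, 349 and 343 in local leaves at 8 min, at least 100.3-fold above 0 min (interaction 7.42, SE 0.63, adjusted p = 6.0e-11). It had at most 3 reads in each local library at 0 min, so this fold is a bound against the floor. Systemic leaves were not silent for the whole family: 11 of the 16 rose there too (22.1% of all transcripts did), among them HSP17.6A (AT5G12030), whose mean was 82 normalized counts at 8 min, against 16.3 at 0 min. In local leaves HSP17.6A averaged 6477 at 8 min, against 95.7 at 0 min. The member without a call was AT4G21870 (interaction 0.01, adjusted p = 0.99), and where both tables had to pass the filter on low counts 9 of the 15 were called, since the rest were then not tested. Several of these genes are close copies, and how reads shared between copies were counted is not given in the sources used here.

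The larger chaperones and their cochaperones followed the same order, with 15 of 16 higher (5.71% of all transcripts were) and a median interaction of 2.56. BAG6 (AT2G46240), a cochaperone that binds calmodulin, had 19893, 20987 and 20381 normalized counts in local leaves at 8 min, against 97, 68.9 and 78.8 at 0 min. In systemic leaves it had 128, 87.8 and 108 at 8 min, against 52.7, 52.1 and 50.7 at 0 min. The systemic groups did not overlap either, but their change was 1.03 log2, against 7.96 in local leaves (interaction 6.94, SE 0.17, adjusted p = 2.0e-24). AT1G71000, a DnaJ-domain chaperone, had 662, 683 and 616 in local leaves at 8 min, against 0, 0 and 0.866 at 0 min, at least 191-fold higher, and did not exceed 1.69 in systemic libraries at 0 or 8 min. Its interaction, 8.92 (SE 0.68, adjusted p = 6.1e-12), was the largest of the named transcripts, on a log2 scale with 1 added to each count. AT1G71000 passed the filter on low counts through local leaves alone, so its place among the 15 is in part fixed by that filter. Hsp70b (AT1G16030), a cytosolic Hsp70, had 4320.2, 4564 and 4509 in local leaves at 8 min, against 104, 68 and 91.8 at 0 min, and 77.2, 74 and 87.2 in systemic leaves at 8 min, against 85, 78.6 and 63.1 at 0 min (interaction 5.59, SE 0.17, adjusted p = 8.0e-22). Here the systemic groups overlapped and only the local leaf changed. HSP101 (AT1G74310), which pulls apart protein aggregates, averaged 37401 in local leaves at 8 min, against 1701 at 0 min, and 1827 in systemic leaves at 8 min, against 1531 at 0 min. HSP90.1 (AT5G52640) is the member that rose most in systemic leaves, by 1.37 log2, against 3.25 in local leaves. Organellar disaggregases rose in local leaves and fell slightly in systemic leaves. CLPB3 (AT5G15450, chloroplast) changed by 1.30 log2 in local and -0.22 in systemic leaves, and CLPB4 (AT2G25140, mitochondrion) by 2.18 and -0.14. With each library set to one total, the median systemic change over all transcripts was 0.12, against -0.01 with the deposited scaling. The sign of falls this small is therefore uncertain. Hop1 (AT1G12270) was the member with no call (interaction 0.04, adjusted p = 0.77).

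Heat shock factors divided. Of 16 tested, 7 were higher (5.71% of all transcripts were), 2 were lower (8.05% were) and 7 had no call. HSFA2 (AT2G26150), the heat-inducible factor that prolongs chaperone expression, had 23866, 24025 and 23672 normalized counts in local leaves at 8 min, against 659.9, 666 and 707 at 0 min. Systemic leaves had 788, 801 and 765 at 8 min, against 619, 568 and 617 at 0 min. It rose in both leaves, without overlap between times, by 5.14 log2 in local and 0.38 in systemic leaves (interaction 4.75, SE 0.09, adjusted p = 4.8e-27). HSFA7A (AT3G51910) had 3274, 3500.1 and 3239 in local leaves at 8 min, against 52.5, 45.3 and 62.3 at 0 min, and 92.8, 66.6 and 80.4 in systemic leaves at 8 min, against 45.2, 36.4 and 38.2 at 0 min (interaction 4.97, SE 0.25, adjusted p = 1.3e-16). AT-HSFA7B (AT3G63350) had 85.1, 95.2 and 87.7 in local leaves at 8 min, against 0, 0 and 0 at 0 min, at least 26.1-fold higher, and at most 2.54 in systemic libraries at 0 or 8 min. It passed the filter on low counts through local leaves alone, so its place among the 7 higher factors is in part fixed by that filter. The class B factors HSF4 (AT4G36990), HSFB2A (AT5G62020) and AT-HSFB2B (AT4G11660), which repress transcription, had interactions of 2.00, 2.02 and 2.39. On the other side stood HSF A4A (AT4G18880), at -0.68, and HSFA8 (AT1G67970), at -1.59: the HSFA8 mean was 226 normalized counts in local leaves at 8 min, against 98.6 at 0 min, and 219 in systemic leaves at 8 min, against 31.1 at 0 min. The 3 strongest factors and HSP21 each hold the heat shock element GAANNTTC in the 250 bases before the gene start, and their promoters are printed to show where it lies. The sequences are from RefSeq (TAIR10.1), 5′ to 3′ on the strand of the gene, with the element in capitals: HSFA2 at chr2:11135374-11135623 (plus strand), HSFA7A at chr3:19264891-19265140 (plus), AT-HSFA7B at chr3:23398986-23399235 (plus) and HSP21 at chr4:13819972-13820221 (minus).
HSFA2: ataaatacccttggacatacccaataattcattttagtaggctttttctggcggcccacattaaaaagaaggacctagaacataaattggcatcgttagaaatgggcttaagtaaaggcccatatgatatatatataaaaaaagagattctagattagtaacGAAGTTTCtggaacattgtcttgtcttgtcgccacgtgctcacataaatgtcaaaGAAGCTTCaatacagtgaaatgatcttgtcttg
HSFA7A: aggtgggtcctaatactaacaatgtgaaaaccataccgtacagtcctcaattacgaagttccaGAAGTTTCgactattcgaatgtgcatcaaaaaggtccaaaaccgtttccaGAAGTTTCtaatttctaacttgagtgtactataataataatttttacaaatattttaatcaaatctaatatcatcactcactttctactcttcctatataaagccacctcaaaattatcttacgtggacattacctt
AT-HSFA7B: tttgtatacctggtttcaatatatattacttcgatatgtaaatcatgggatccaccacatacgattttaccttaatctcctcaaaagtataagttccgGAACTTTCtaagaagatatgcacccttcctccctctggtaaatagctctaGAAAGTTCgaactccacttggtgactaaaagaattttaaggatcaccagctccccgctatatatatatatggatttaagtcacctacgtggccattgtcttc
HSP21: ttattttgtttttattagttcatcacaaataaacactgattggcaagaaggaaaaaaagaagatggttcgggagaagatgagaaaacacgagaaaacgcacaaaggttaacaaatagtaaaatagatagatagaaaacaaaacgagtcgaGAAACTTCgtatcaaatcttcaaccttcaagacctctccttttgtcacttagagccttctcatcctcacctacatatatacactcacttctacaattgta
The 3 factors carry 2 elements each and HSP21 carries 1. The element, read on both strands, stood in 9.57% of the promoters of all tested genes and in 4 of 16 small heat shock protein promoters. A match of these letters is a description of the window and not evidence of binding.

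Other stress regulators were divided between the leaves. DREB2A (AT5G05410), a factor of drought and heat responses that overlaps another annotated gene, had 2679, 2621 and 2533 normalized counts in local leaves at 8 min, against 20.6, 28.1 and 25.1 at 0 min. Its systemic libraries held 47.8, 45.5 and 55 at 8 min, against 17.2, 9.83 and 20.1 at 0 min. No library at 8 min overlapped with one at 0 min in either leaf, and the changes were 6.68 log2 in local and 1.65 in systemic leaves (interaction 5.04, SE 0.27, adjusted p = 6.9e-16). RHL41 (AT5G59820), a zinc finger factor of oxidative and light stress, had 791, 813 and 829 in local leaves at 8 min, against 21.7, 21.8 and 13 at 0 min, and 111, 114 and 110.1 in systemic leaves at 8 min, against 9.68, 6.88 and 6.69 at 0 min (interaction 1.69, SE 0.26, adjusted p = 1.3e-05). ERF104 (AT5G61600) had 941, 863 and 863 in local leaves at 8 min, against 42.2, 36.3 and 36.4 at 0 min, and 298, 253 and 295 in systemic leaves at 8 min, against 37.7, 20.6 and 16.2 at 0 min (interaction 0.97, SE 0.27, adjusted p = 0.011). For these 2 genes most of the change was shared, and the interaction was the smaller part of it. CBF1 (AT4G25490) and CBF2 (AT4G25470), factors of cold acclimation, rose in both leaves, with interactions of 2.34 (SE 0.78) and 0.74 (SE 0.25) at adjusted p = 0.04 and 0.05, and of the 3 members called of 4 tested 1 or 2 were still called when any 1 of the 12 libraries was left out. The 9 ZAT zinc finger factors were split, with 3 higher (RHL41, ZAT6 and STZ; 5.71% of all transcripts were) and 5 lower (8.05% were), the most so ZF1 (AT5G67450, interaction -1.72, SE 0.23, adjusted p = 1.1e-06). APX2 (AT3G09640), a cytosolic ascorbate peroxidase, had 27.3, 49 and 33.1 in local leaves at 8 min, against 3.43, 0 and 0 at 0 min, and 0.919, 3.17 and 1.69 in systemic leaves at 8 min, against 1.08, 0.983 and 0 at 0 min. It was one of 2 called among 15 enzymes that form or remove reactive oxygen species, a share of 13.3% that is near the 13.8% of all transcripts (interaction 3.67, SE 1.03, adjusted p = 0.012).

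Photoprotective transcripts leaned to the local leaf with small values. Of 15 photoprotection transcripts 7 were higher (5.71% of all transcripts were) and none lower, and 4 were higher with each library set to one total. In local leaves 5 of the 15 rose and 3 fell (22% and 22.8% of all transcripts did), with a median change of -0.01 log2. In systemic leaves 2 rose and 8 fell (22.1% and 22.3% did), with a median change of -0.11 log2. ELIP1 (AT3G22840), an early light-induced protein that binds freed chlorophyll, had 632, 605 and 579 normalized counts in local leaves at 8 min, against 247, 278 and 268 at 0 min. In systemic leaves it had 434, 465 and 392.1 at 8 min, against 381, 419 and 467 at 0 min. Local leaves thus started below systemic leaves and ended above them (interaction 1.16, SE 0.13, adjusted p = 2.4e-08). BBX31 (AT3G21890), a B-box factor of light and UV signalling, had 1491, 1517 and 1497 in local leaves at 8 min, against 422, 429 and 436 at 0 min, and 628, 606 and 626 in systemic leaves at 8 min, against 396, 422 and 430.1 at 0 min (interaction 1.23, SE 0.07, adjusted p = 5.5e-15). The homeodomain-like AT1G18330, kept in the clock list, changed in the local leaf only, with 1064, 1049 and 1031 in local leaves at 8 min, against 275, 277 and 284 at 0 min, and 291, 289.8 and 289 in systemic leaves at 8 min, against 293, 256 and 309 at 0 min (interaction 1.88, SE 0.11, adjusted p = 6.7e-15). Its systemic groups overlapped. Altogether 6 of 30 light signalling and 6 of 19 clock transcripts were higher, against 5.71% of all transcripts, and 1 of each was lower, against 8.05%. Of 20 light-harvesting transcripts 1 was higher (5%), a share near that of all transcripts. HY5 (AT5G11260), the central activator of light responses, rose by 1.39 log2 in local and 1.05 in systemic leaves, so that its interaction was 0.34 (adjusted p = 0.0024).

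The systemic leaf was set apart by salicylic acid and systemic acquired resistance. Of 27 transcripts tested, 25 had a lower interaction (92.6%, against 8.05% of all transcripts) and none a higher one. The median interaction was -1.89, with median changes of 0.54 log2 in local and 2.46 in systemic leaves. The median member stood at 625, 660.3 and 631 normalized counts in the local libraries at 8 min, against 460.1, 532 and 456 at 0 min, and at 763, 749 and 751 in the systemic libraries at 8 min, against 144, 124 and 145 at 0 min. The systemic leaves at 0 min were the low group, and at 8 min the systemic libraries stood above the local ones. PR1 (AT2G14610), the classic marker of salicylic acid signalling, had 1217, 1202 and 1458 normalized counts in local leaves at 8 min, against 934, 991 and 778 at 0 min. Systemic leaves had 1052, 1093 and 1002 at 8 min, against 12.9, 15.72 and 34.4 at 0 min. The systemic libraries at 0 min reached at most 34.4, and the other 9 stood at 778 or more, so that the interaction of -5.18 (SE 0.29, adjusted p = 4.8e-15) rested on 1 of the 4 groups.

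The same form held along the pathway. EDS16 (AT1G74710), the isochorismate synthase that makes salicylic acid, averaged 2418 normalized counts in local leaves at 8 min, against 1228 at 0 min, and 2273 in systemic leaves at 8 min, against 624 at 0 min (interaction -0.89, adjusted p = 4.0e-08). Its activators CBP60G (AT5G26920) and SARD1 (AT1G73805) had interactions of -1.36 and -1.59, and PBS3 (AT5G13320), which acts downstream of it in the same synthesis, -1.89. ALD1 (AT2G13810), which starts the synthesis of pipecolic acid, the mobile partner of salicylic acid, had 79.5, 76.8 and 106 in local leaves at 8 min, against 43.4, 66.2 and 49.4 at 0 min, and 80.9, 97.3 and 73.7 in systemic leaves at 8 min, against 11.8, 0 and 1.91 at 0 min. Only the systemic change was called (4.66 log2; interaction -3.94, SE 0.65, adjusted p = 3.0e-05). The signalling pair EDS1 (AT3G48090) and PAD4 (AT3G52430) stood at -1.14 and -1.11, and the NPR1-binding repressors NIMIN1 (AT1G02450) and NIMIN-2 (AT3G25882) at -2.79 and -3.13. BGL2 (AT3G57260), a glucanase secreted in defence, averaged 4001 in local leaves at 8 min, against 1727 at 0 min, and 4614 in systemic leaves at 8 min, against 424 at 0 min (interaction -2.23, adjusted p = 9.1e-15). UGT76B1 (AT3G11340), a glucosyltransferase that dampens this signalling, had 187, 175 and 192 in local leaves at 8 min, against 242, 323 and 203 at 0 min, and 197, 237 and 218 in systemic leaves at 8 min, against 75.3, 11.8 and 16.2 at 0 min (interaction -3.53, SE 0.48, adjusted p = 1.2e-06). The systemic library at 0 min with the root transcript was the highest of its group for this gene and for ALD1, and with it left out 25 of the 27 were still lower. The 2 members without a call were ICS2 (AT1G18870) and NPR1 (AT1G64280).

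Transcripts outside the list repeated the pattern. AT3G28510, a P-loop hydrolase, had 476, 459.6 and 555 normalized counts in local leaves at 8 min, against 476, 518 and 380.1 at 0 min. Its systemic libraries held 679, 719 and 650.3 at 8 min, against 50.6, 22.6 and 39.2 at 0 min. Only the systemic change was called (4.22 log2; interaction -4.10, SE 0.22, adjusted p = 1.4e-15). ARD3 (AT2G26400), of the methionine salvage cycle, had 389, 341 and 426 in local leaves at 8 min, against 339, 378 and 269 at 0 min, and 407, 358 and 335 in systemic leaves at 8 min, against 49.5, 14.7 and 13.4 at 0 min (interaction -3.79, SE 0.40, adjusted p = 7.5e-09). The fructan exohydrolase cwINV6 (AT5G11920) had 173, 181 and 195 in local leaves at 8 min, against 75.4, 98.8 and 61.5 at 0 min, and 151, 157 and 161 in systemic leaves at 8 min, against 0, 4.91 and 8.6 at 0 min (interaction -4.12, SE 0.58, adjusted p = 2.2e-06). For each of these genes the systemic 0 min libraries were the ones set apart. SAG13 (AT2G29350), a marker of leaf senescence, had 318, 312 and 466 in local leaves at 8 min, against 211, 248 and 168 at 0 min, and 309.8, 342 and 273 in systemic leaves at 8 min, against 31.2, 10.8 and 3.82 at 0 min (interaction -3.86, SE 0.47, adjusted p = 1.3e-07). Of 8 senescence markers, 1 was at 0 in all 12 libraries, and 4 of 7 tested were lower (8.05% of all transcripts were). The summed level of the 8 was 4732 to 5296 normalized counts in local leaves at 8 min and 3387 to 3666 at 0 min. In systemic leaves it was 4439.6 to 4442 at 8 min and 2273 to 2422 at 0 min. These sums moved with the salicylic acid list, and their part in its result was not tested.

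**Figure D2:**
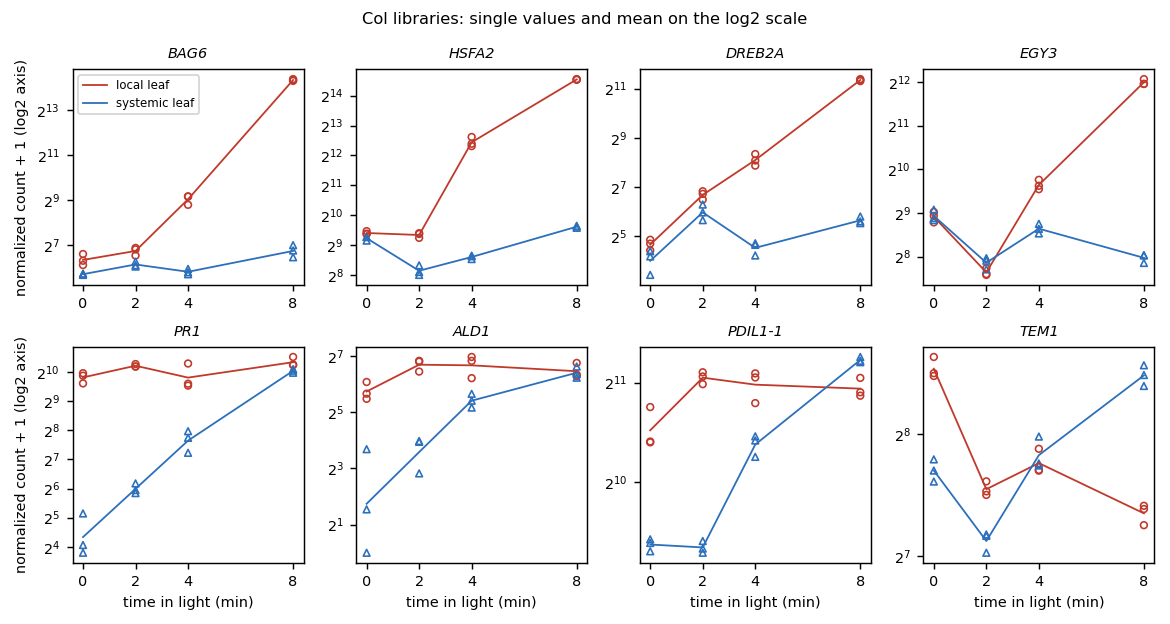
Normalized count plus 1 (y axis, log2 scale) against time in light (x axis, min) for 8 transcripts in the 24 Col libraries, with local leaves as red circles and systemic leaves as blue triangles, and lines through the mean of the log2 values of 3 replicates. BAG6, HSFA2, DREB2A and EGY3 climb in local leaves, while PR1, ALD1 and PDIL1-1 start low in systemic leaves at 0 min and climb to the local level, and TEM1 crosses between the leaves.

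WRKY factors, many of which act in salicylic acid signalling, also leaned to the systemic leaf, with 19 of 44 tested lower (8.05% of all transcripts were), or 14 without replicate 2 of the local leaves at 8 min, and 1, WRKY33 (AT2G38470, interaction 0.82), higher. WRKY38, WRKY54, WRKY62 and WRKY70 belong to the salicylic acid list as well, so the counts of these lists are in part of the same genes. WRKY38 (AT5G22570), a repressor of basal defence, had 41, 32.4 and 50.1 normalized counts in local leaves at 8 min, against 95.9, 102 and 67.5 at 0 min. In systemic leaves it had 122, 135 and 118 at 8 min, against 33.4, 13.8 and 18.16 at 0 min. It fell in the local leaf and rose in the systemic leaf, with no overlap in either (interaction -3.65, SE 0.33, adjusted p = 3.6e-10). WRKY62 (AT5G01900), which acts with WRKY38, had 12, 12.9 and 15.2 in local leaves at 8 min, against 35.4, 35.4 and 18.18 at 0 min, and 23.9, 28.6 and 36.4 in systemic leaves at 8 min, against 12.9, 0.983 and 3.82 at 0 min (interaction -3.60, SE 0.65, adjusted p = 1.1e-04). WRKY51 (AT5G64810) had 79.5, 83.2 and 107 in local leaves at 8 min, against 52.5, 66.2 and 53.7 at 0 min, and 108, 111 and 134 in systemic leaves at 8 min, against 11.8, 3.93 and 14.3 at 0 min (interaction -2.94, SE 0.36, adjusted p = 2.1e-07). These low counts carry wider errors than those of WRKY70 (AT3G56400), which averaged 4170.3 in local leaves at 8 min, against 3589 at 0 min, and 5070.2 in systemic leaves at 8 min, against 1110.3 at 0 min. The W-box, the site that WRKY factors bind (TTGACC or TTGACT on either strand), was found in 27.9% of the 250-base promoters of all tested genes, in 37.8% of those of the lower transcripts and in 47.5% of those lower by at least 2 log2. It stood in 23.4% of the promoters of the higher transcripts. In the salicylic acid list only 5 of 27 promoters held it (18.5%), a share below that of all tested genes, and in the WRKY list 17 of 44 did (38.6%). No test was made of these W-box shares. WRKY62 is shown because it is both a WRKY gene and a holder of the box, at chr5:352096-352345 (minus strand, TAIR10.1, RefSeq), with its boxes in capitals.
WRKY62: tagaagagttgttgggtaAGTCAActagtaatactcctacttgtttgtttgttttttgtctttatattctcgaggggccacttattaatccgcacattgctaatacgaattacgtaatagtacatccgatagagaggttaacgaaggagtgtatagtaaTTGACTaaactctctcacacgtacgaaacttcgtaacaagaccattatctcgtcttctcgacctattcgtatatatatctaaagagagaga
Its 2 boxes lie on opposite strands. Promoters of PR1 and WRKY38 held none in this window.

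Most chaperones in the endoplasmic reticulum list had interactions opposite in sign to those of the chaperone lists above. ATHSP22.0, of the same compartment but listed with small heat shock proteins, had an interaction of 8.55. Of 17 tested in the endoplasmic reticulum list, 13 were lower (8.05% of all transcripts were) and 2 higher (5.71% were), with a median interaction of -0.87. All 17 rose in systemic leaves (22.1% of all transcripts did) and 15 rose in local leaves (22% did), with medians of 0.47 log2 in local leaves and 1.49 in systemic leaves. PDIL1-1 (AT1G21750), a protein disulfide isomerase, had 1913, 1868 and 2115 normalized counts in local leaves at 8 min, against 1348, 1725 and 1356 at 0 min. Systemic leaves had 2385, 2449 and 2361 at 8 min, against 629, 667 and 684 at 0 min. As for PR1, systemic leaves at 0 min were lowest, and here systemic leaves at 8 min ended above every local library (interaction -1.44, SE 0.11, adjusted p = 2.2e-12). BIP3 (AT1G09080), the inducible lumenal Hsp70, had 443, 399 and 484 in local leaves at 8 min, against 313, 397 and 313 at 0 min, and 590.2, 569 and 549 in systemic leaves at 8 min, against 117, 52.1 and 52.6 at 0 min (interaction -2.66, SE 0.26, adjusted p = 1.6e-09). Its close relatives BIP1 (AT5G28540) and BIP2 (AT5G42020) had interactions of -1.05 and -1.18, the lectin chaperones CNX1 (AT5G61790) and CRT3 (AT1G08450) of -1.16 and -1.03, and SHD (AT4G24190), the Hsp90 of the lumen, of -1.09. The 2 that leaned to the local leaf were ATERDJ3A (AT3G08970), a DnaJ protein whose gene overlaps another, and BZIP28 (AT3G10800), a membrane-anchored factor of the unfolded protein response. ATERDJ3A had 2413, 2562 and 2576 in local leaves at 8 min, against 159.8, 189 and 208 at 0 min, and 253, 233 and 259 in systemic leaves at 8 min, against 78.5, 59 and 76.5 at 0 min (interaction 1.97, SE 0.16, adjusted p = 4.6e-11), and BZIP28 an interaction of 0.46. BZIP60 (AT1G42990), the other factor of that response, stood at -0.24 (adjusted p = 0.024). The G-box CACGTG, read on both strands, was in 7 of these 17 promoters (41.2%), against 7.4% of those of all tested genes.

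Of 15 calcium and touch transcripts 7 were lower, against 8.05% of all transcripts, and none higher. AT3G47480, a calcium-binding EF-hand protein, had 594, 522 and 607 normalized counts in local leaves at 8 min, against 324, 385 and 341 at 0 min. Its systemic libraries held 704, 679 and 677 at 8 min, against 80.7, 54 and 75.5 at 0 min. The transcript rose in both leaves, and the systemic leaf, low at 0 min, ended higher (interaction -2.58, SE 0.16, adjusted p = 6.0e-14). AT3G22910, an E1-E2 type ATPase, had 151, 134 and 167 in local leaves at 8 min, against 151, 188 and 145 at 0 min, and 262, 265 and 254 in systemic leaves at 8 min, against 63.5, 58 and 78.4 at 0 min (interaction -2.06, SE 0.18, adjusted p = 1.6e-10). TCH4 (AT5G57560), a touch-induced cell wall enzyme, averaged 579 in local leaves at 8 min, against 88.3 at 0 min, and 1589 in systemic leaves at 8 min, against 102 at 0 min. TCH4, in contrast to the genes above, began at like levels in both leaves, and its 8 min libraries were what differed (interaction -1.33, adjusted p = 2.2e-05). The mitochondrial stress transcript BCS1 (AT3G50930) rose by 2.03 log2 in local and 2.98 in systemic leaves (interaction -0.95, SE 0.13, adjusted p = 9.6e-07), and 2 of 7 transcripts of alternative respiration were lower (8.05% of all transcripts were).

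A few transcripts changed sign between the leaves. EGY3 (AT1G17870), a chloroplast membrane protein whose gene overlaps another, had 3958, 4272 and 3959.6 normalized counts in local leaves at 8 min, against 487, 439.7 and 519 at 0 min. In systemic leaves it had 261, 231 and 260.0 at 8 min, against 538, 472 and 456 at 0 min. The leaves were alike at 0 min and moved apart in opposite directions (interaction 4.03, SE 0.11, adjusted p = 2.5e-23). AR192 (AT4G26780), a GrpE cochaperone, had 526, 492 and 491 in local leaves at 8 min, against 313, 340.0 and 327 at 0 min, and 211, 221 and 236 in systemic leaves at 8 min, against 351, 376 and 354 at 0 min (interaction 1.31, SE 0.13, adjusted p = 1.4e-09). AT1G03070, of the Bax inhibitor family of cell death suppressors, had 629.7, 650.1 and 659 in local leaves at 8 min, against 10.3, 7.25 and 10.4 at 0 min, and 9.19, 7.4 and 5.08 in systemic leaves at 8 min, against 15.1, 7.86 and 18.16 at 0 min (interaction 6.78, SE 0.37, adjusted p = 1.5e-15). Both these genes also overlap another annotated gene, and whether counting used strand is not given in the sources used here. In the reverse direction, TEM1 (AT1G25560), a repressor of flowering, had 169, 152 and 166 in local leaves at 8 min, against 356, 397 and 362 at 0 min, and 336, 379 and 358 in systemic leaves at 8 min, against 195, 221 and 207 at 0 min. The leaves exchanged places, the local one ending below where the systemic one had begun (interaction -1.97, SE 0.12, adjusted p = 1.3e-14). The aspartyl protease AT5G19120 had 242, 276 and 291 in local leaves at 8 min, against 414, 458 and 442 at 0 min, and 609, 598 and 626 in systemic leaves at 8 min, against 369, 325 and 336 at 0 min (interaction -1.53, SE 0.10, adjusted p = 1.1e-13). MYB30 (AT3G28910), a regulator of cell death and of light stress responses, fell in the local leaf (change -0.37 log2) and rose in the systemic leaf (change 0.49), with 177, 148 and 160.1 in local leaves at 8 min, against 213, 205 and 207 at 0 min, and 302, 313 and 346 in systemic leaves at 8 min, against 222, 222 and 242 at 0 min (interaction -0.85, SE 0.12, adjusted p = 2.8e-06).

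Hormone, carbon and growth transcripts showed smaller shares, to be read against the 5.71% of all transcripts that were higher and the 8.05% that were lower. For abscisic acid 11 of 31 were higher and 2 lower, but the counts fell to 4 higher and 4 lower with each library set to one total, and to 5 higher without replicate 1 of the local leaves at 8 min. NCED3 (AT3G14440), the limiting enzyme of abscisic acid synthesis, had 362, 371 and 406 normalized counts in local leaves at 8 min, against 149.6, 141 and 157 at 0 min, and 196, 196 and 194 in systemic leaves at 8 min, against 154, 144 and 162 at 0 min (interaction 1.00, SE 0.14, adjusted p = 2.8e-06). Of 21 jasmonate transcripts 2 were called (9.52%, against 13.8% of all transcripts), both higher: JAZ1 (AT1G19180, a repressor induced by the hormone) and VSP1 (AT5G24780, a storage protein). JAZ1 had 229, 227 and 294 in local leaves at 8 min, against 55.9, 46.2 and 67.5 at 0 min, and 90.09, 104 and 87.2 in systemic leaves at 8 min, against 69.9, 58 and 59.3 at 0 min (interaction 1.55, SE 0.26, adjusted p = 4.7e-05). JAZ1 was therefore raised mostly in the lit leaf, whereas VSP1 fell in both leaves and by less in the local one (changes -1.51 and -3.29 log2 in local and systemic leaves). ASN1 (AT3G47340), the asparagine synthase of starved leaves, whose gene overlaps another, had 294, 299.6 and 274 in local leaves at 8 min, against 225, 255 and 267 at 0 min, and 1131, 967 and 1165 in systemic leaves at 8 min, against 504, 401 and 436 at 0 min (interaction -1.06, SE 0.11, adjusted p = 8.3e-09). Of 24 transcripts of sugar and carbon status 5 were higher and 5 lower. Some growth transcripts had lower interactions: 6 of 14 SAUR transcripts, which promote cell expansion, were lower and none higher, with SAUR29 (AT3G03820) at 56.2, 44.4 and 43.8 in local leaves at 8 min, against 194, 185 and 193 at 0 min, and 139, 139.6 and 119 in systemic leaves at 8 min, against 230.2, 261 and 241 at 0 min (interaction -1.09, SE 0.18, adjusted p = 2.2e-05). Cell wall xyloglucan endotransglucosylases likewise had 6 of 20 lower and none higher, XTH8 (AT1G11545) with 57, 74 and 57.2 in local leaves at 8 min, against 131, 119.7 and 123 at 0 min, and 232, 205 and 234 in systemic leaves at 8 min, against 181, 224 and 175 at 0 min (interaction -1.20, SE 0.18, adjusted p = 5.7e-06). Only the local change of XTH8 was called.

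**Figure D3:**
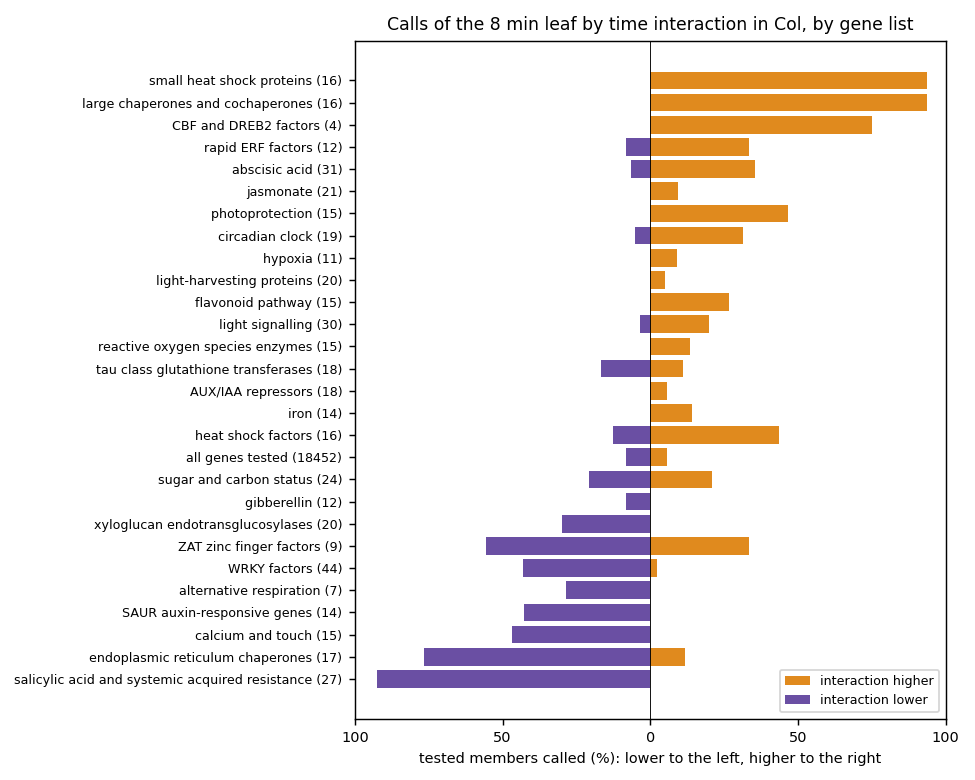
Share of the tested members of each gene list (x axis, %) with a lower interaction (violet, left) or a higher interaction (orange, right) at 8 min in Col, with the number tested in parentheses and lists ordered by median interaction; the row of all genes tested gives 8.05% lower and 5.71% higher. Small heat shock proteins and large chaperones (15 of 16 each) and salicylic acid transcripts (25 of 27) lie at the 2 ends.

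Libraries at 2 and 4 min show the course of these differences; they took no part in the 8 min difference itself, but shared its low-count filter and its estimate of the spread. The measure is the median over the members of a list of log2 local minus log2 systemic level, given beside the median of all tested transcripts, which stayed between -0.09 and -0.06 throughout. The 2 leaves were normalized in separate tables, so the level of this gap rests on both. Small heat shock proteins began at 0.52 before the light and reached 1.25 after 2 min, 3.52 after 4 min and 6.43 after 8 min, and large chaperones went through 0.15, 0.09, 1.12 and 3.22. Of 16 members each, 4 small heat shock proteins and 1 large chaperone had a higher interaction at 2 min already, against 967 of all 18452 transcripts. So did 8 of 17 endoplasmic reticulum chaperones and 7 of 27 salicylic acid transcripts, with 1 salicylic acid transcript lower. Salicylic acid transcripts began at 1.69, with 1.79 after 2 min, 0.47 after 4 min and -0.16 after 8 min, and endoplasmic reticulum chaperones at 0.90, 1.10, 0.46 and -0.06. There the gap was present before any light, narrowed by 4 min and was gone at 8 min. The median salicylic acid transcript had 144, 124 and 145 normalized counts in the systemic libraries before the light, 227, 263 and 262 after 2 min, 463, 439 and 439 after 4 min and 763, 749 and 751 after 8 min. Every systemic library at a later time was above every one at an earlier time. Of the 169 transcripts lower by at least 2 log2, 89.9% had all local libraries above all systemic libraries before the light, 88.2% after 2 min, 72.2% after 4 min and 7.1% after 8 min, while of all 18452 transcripts 2146 (11.6%) did before the light, 3724 (20.2%) after 2 min, 2047 (11.1%) after 4 min and 2903 after 8 min. Of the 134 higher by at least 2 log2, the local leaf was above in 24.6% before the light, 41.8% after 2 min, 76.1% after 4 min and 93.3% after 8 min. For both sets the shares before the light and after 8 min are in part fixed by how the transcripts were chosen, and all 4 shares are given as a description. Counted as interactions against the same 0 min libraries, 2164 transcripts (11.7%) were called at 2 min and 1169 (6.34%) at 4 min.

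**Figure D4:**
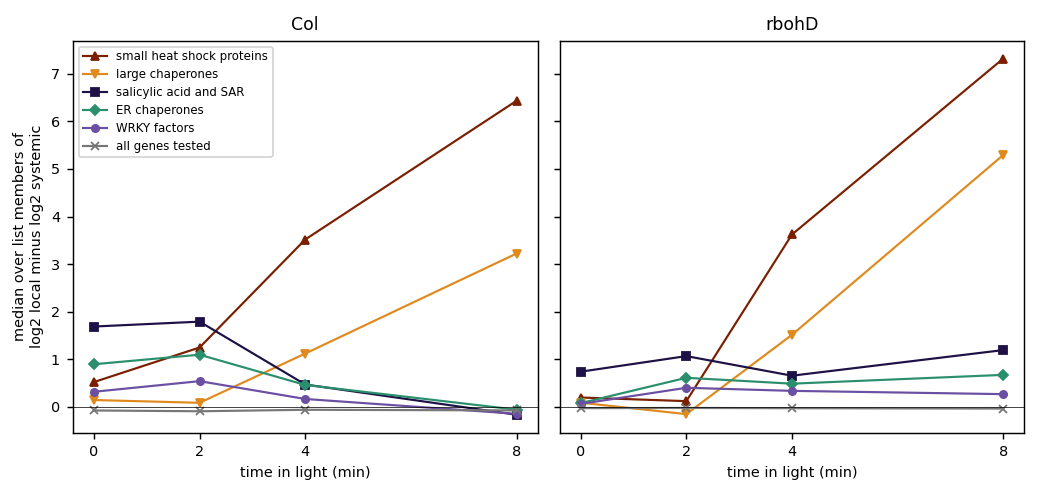
Median over list members of log2 local minus log2 systemic normalized count (y axis) against time in light (x axis, min) in Col (left) and rbohD (right). In Col the lines of salicylic acid transcripts and endoplasmic reticulum chaperones begin above 0 and end near 0, while the chaperone lines climb in both genotypes.

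Heat shock elements were not confined to the promoters of transcripts that favoured the lit leaf. They stood in 11.6% of the promoters of higher transcripts and 17.9% of those higher by at least 2 log2, but also in 13.9% of those of lower transcripts and 38 of the 162 promoters of those lower by at least 2 log2, against 9.57% of all tested genes. The G-box stood in 12.8% of the promoters of higher and 5.73% of those of lower transcripts. No test was made of these shares.

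The rbohD libraries show how far the separation of the leaves held without RBOHD, with Col and rbohD values each from their own experiment. Among 18579 transcripts tested in both genotypes together, the interaction differed between Col and rbohD for 2001 (10.8%), being higher in Col for 552 (2.97%) and lower in Col for 1449 (7.8%). In rbohD itself 3746 (20.2%) had an interaction, 2212 higher (11.9%) and 1534 lower (8.26%). Of the 1054 transcripts higher in Col, 584 were called higher in rbohD too, 55.4% of the Col list and 584 of the 2204 of the rbohD list that were tested in Col, and 21 were called lower. Of the 1486 lower in Col, 327 were called lower in rbohD, 22% of the Col and 21.4% of the rbohD list, and 489 (32.9%) were called higher. The difference between the genotypes was itself called for 271 (25.7%) of the higher and 838 (56.4%) of the lower transcripts. Both sets were chosen by their Col interaction, and the same Col libraries enter the difference. These shares are therefore in part fixed by the choice and are given as a description.

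Small heat shock proteins and BAG6 leaned to the lit leaf in both genotypes. BAG6 had an interaction of 6.94 in Col and 7.75 in rbohD (difference -0.82, SE 0.24, adjusted p = 0.014), and the median of small heat shock proteins was 5.17 in Col and 7.18 in rbohD. For HSFA2 the interaction was 4.75 in Col and 7.81 in rbohD (difference -3.06, SE 0.17, adjusted p = 1.3e-20). Its mean at 0 min was 678 normalized counts in local and 601 in systemic leaves of Col, against 42 and 35.8 in rbohD. At 8 min local leaves averaged 23854 in Col and 15542 in rbohD, and systemic leaves 784 in Col and 58.6 in rbohD. These levels come from separately normalized experiments, and what lay behind the difference was not tested. The salicylic acid list had a median of -1.89 in Col and 0.57 in rbohD. The difference was called for 25 of its 27 members, against 10.8% of all transcripts in either direction. PR1 stood at -5.18 in Col and 1.73 in rbohD (difference -6.91, SE 0.44, adjusted p = 1.5e-18), PDIL1-1 at -1.44 in Col and 0.62 in rbohD (difference -2.06, SE 0.14, adjusted p = 1.4e-17). In endoplasmic reticulum chaperones the difference was called for 16 of 17, against the same 10.8%, and the median interaction was -0.87 in Col and 0.61 in rbohD. In rbohD the leaf gap of the salicylic acid list, 0.74 before the light, 1.07 and 0.66 at the next 2 times and 1.195 at the last, did not close.

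**Figure D5:**
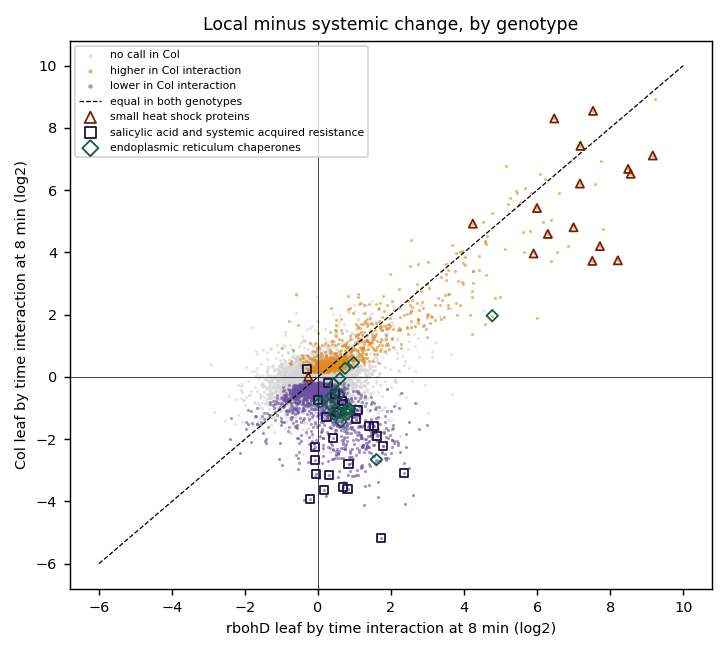
Interaction at 8 min in Col (y axis, log2) against rbohD (x axis, log2), 1 point per transcript tested in Col, coloured by the Col call. Small heat shock proteins (triangles) lie in the upper right in both genotypes, apart from 1 near the origin, while most salicylic acid transcripts (squares) and endoplasmic reticulum chaperones (diamonds) lie below 0 in Col and at or above 0 in rbohD.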

How the data were processed

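RNA of pooled leaves was sequenced as stranded mRNA libraries, single end; per the labels and the study's methods, reads were checked with FastQC 0.11.7, aligned to TAIR10 with STAR 2.4.0.1 and normalized with DESeq2 1.20.0. The deposited signal values are gene counts that the authors divided by size factors, separately in each of 4 tables (leaf by genotype); the tool that counted reads and its use of strand are not given in the sources used here. Every value came out a whole multiple of the value of 1 read (100% within 0.1 of a read), so read counts could be recovered for count tests as alternatives. A total of 32833 genes were listed, and 99.5% of those tested matched RefSeq (TAIR10.1), which supplied names and promoters; the tables themselves held no coordinates.

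Values were analysed as log2(normalized count + 1) with limma 3.58.1 (R 4.3.3) and a mean-variance trend, over the 24 Col libraries with a mean for each leaf and time, for 18452 genes that reached 10 normalized counts in 3 libraries or more. Tests were two-sided, with Benjamini-Hochberg adjustment over all genes tested and a threshold of 0.05, and no replicate block. Fold changes of low genes are understated on this scale. The rbohD comparison used all 48 libraries, 13412657 to 28675623 reads each. Replicate libraries of a group correlated at 0.992 to 0.996 and none was a duplicate; a smaller count gives a wider standard error, so low genes are less certain. The replicates are 3 repeats of the pooled experiment. Bounds against a group near 0 used a floor of 3 reads per library and cover counting error only.

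Same-numbered local and systemic libraries of a time came from the same plants. Their deviations from the group means correlated at 0.0048 to 0.276, over 0.1 in 8 of 12 pairs, against -0.2 to 0.0803 for other numbers; blocked fits were therefore run as alternatives.

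The interaction, gene lists and markers were chosen with earlier results of these data known. Lists were described by counts and medians with no list test. Named genes were the 8 largest interactions in each direction whose libraries did not overlap, with a mean of at least 50 normalized counts in a table, the 3 strongest opposite changes in each direction, up to 3 called members per list, RBOHD and MYB30; other list members are given as examples chosen after their values were seen. The test was tried on simulated counts for 18452 genes: 94% of 100 genes with an interaction of 1 log2 and 100% of 100 genes with 2 log2 were recovered, with 8 calls among 18252 unchanged genes. The changed genes were drawn from those with a mean of at least 50 normalized counts. Libraries were simulated as independent, with no other change between groups. These rates therefore do not cover low genes, leaves of shared plants or shifts in scaling. Alternatives were the pseudocount (5), filters, scaling, edgeR 4.0.16, DESeq2 1.42.0, GC correction, blocks, the 12 libraries alone and each library left out.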

Additional observations from a re-analysis of the deposited data

Results flagged for a closer look

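The interaction of 41 of the 81 named genes differed between Col and rbohD in limma at an adjusted p below 0.05, 32 of them lower and 9 higher in Col. Of all 18579 transcripts tested in both genotypes together 2001 did (10.8%), 7.8% lower and 2.97% higher in Col. Most named genes were chosen by their Col interaction, which enters this difference. The counts and the changes of sign are therefore in part fixed by that choice and are given as a description. Genotype and experiment cannot be told apart here. The values are the Col interaction minus the rbohD interaction, in log2.

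The following had a negative interaction in Col and a positive one in rbohD, with these differences: PR1 (-6.91), cwINV6 (-5.38), AT3G28510 (-6.47), SAG13 (-5.50), ARD3 (-6.40), WRKY38 (-3.81), UGT76B1 (-4.21), BIP3 (-4.26), PDIL1-1 (-2.06), TOC1 (-1.08), ZF1 (-3.15), AT3G46080 (-3.61), AT3G47480 (-3.47), AT3G01830 (-2.67), MSS1 (-1.62), BCS1 (-2.23), NDB2 (-1.29), WRKY62 (-4.41), WRKY51 (-5.44), GSTU4 (-2.92) and XTH10 (-2.19). Another group of genes was lower in Col without that change of sign: BAG6 (-0.82), AT1G59860 (-1.81), ALD1 (-3.71), TEM1 (-1.39), AT5G19120 (-0.53), HSFA2 (-3.06), ATERDJ3A (-2.81), BBX31 (-0.51), BBX32 (-0.81), RHL41 (-2.89) and AT3G22910 (-1.89). The genes higher in Col were AT1G03070 (1.64), ELIP1 (0.82), ELIP2 (1.15), VSP1 (2.58), NCED3 (0.99), FLS1 (1.21), TT4 (0.84), SAUR29 (0.74) and IAA14 (0.73). Of all 41, 26 had opposite signs in the genotypes.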

How the results depend on the processing

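The count of 2540 stayed within 1.5 times under the 11 alternatives other than leaving out a library: 2559 with a pseudocount of 5, 2437 without a filter, 2462 with the filter met in each table, 3389 with one total per library, 2814 with edgeR, 2306 with DESeq2, 2778 with GC correction and 2701 with the 12 libraries alone. With one total per library 567 were higher and 2822 lower. With the replicate block, 2697 were called, and 2816 with the block by plant pool (1212 higher, 1604 lower), and 2960 with the block and GC correction; the pairing removed the calls of CBF2 and GA2OX6 (adjusted p = 0.062 and 0.061 with the replicate block) and of TOC1 (0.062 by plant pool) and no other among the named genes. Leaving out each of the 12 libraries gave 2059 to 2501 calls, 811 to 1033 higher and 1248 to 1468 lower; 7216 to 8389 local and 7351 to 8289 systemic changes; and 1724 to 2030 differences between genotypes, against 2001. Among the named genes RBOHD alone, which had no call, changed sign (-0.03 with one total per library, against 0.07). Of the lists, small heat shock proteins and large chaperones kept counts of 15 and salicylic acid transcripts 25 in every leave-one-out fit, while CBF and DREB2 factors gave 1 to 2, heat shock factors 5 to 7 and photoprotection 5 to 7 higher. CBF1, CBF2, GA2OX6, TOC1, ERF2 and GSTU24 lost their call most often. Depth limits the genes with a few counts in 1 leaf, where standard errors reached 1.03 log2 (APX2).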
